A study of Homo sapiens with 8 samples.

Results

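The H3K4me3 landscape of interferon-treated wild-type (WT) U2OS cells was described from 3 of the 8 samples of the series, chosen as those whose labels name a WT H3K4me3 ChIP. U2OS is a human osteosarcoma line of mesenchymal origin. Each library came from a separate WT clone (WT_3, WT_4 and WT_5, here replicates 1, 2 and 3), and every clone received interferon gamma (IFNγ), per the labels at 250 U/ml over 24 h. A figure legend of the study names a longer exposure for a panel that includes such tracks, and which one applies was not resolved here. The other samples were 3 H3K4me3 libraries of ZBTB48 knockout (KO) clones and 2 WT inputs, neither of which was used here, and no untreated library was among the samples. The data therefore show where the mark stood after IFNγ, and not what IFNγ changed. With a single group no test between conditions was made.

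H3K4me3, a histone H3 that carries 3 methyl groups on lysine 4, is laid down at active and poised gene starts, most readily where the DNA is rich in CpG dinucleotides, and broad stretches of it accompany highly transcribed and identity genes. IFNγ acts through its receptor and the kinases JAK1 and JAK2. The signal reaches genes that carry the gamma-activated site (GAS), among them IRF1, whose product in turn binds the interferon-stimulated response element (ISRE) of antiviral and antigen presentation genes. CIITA, the master regulator of MHC class II genes, is itself induced by IFNγ in cells that do not otherwise express it.

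The lists held 22446, 22784 and 24468 broad peaks on chromosomes 1 to 22 and X in replicates 1, 2 and 3, a mean of 23233 ± 1083 (SD, n = 3). Each list gives, per peak, its position and a fold enrichment over background from the authors' peak caller, and no read counts. The paper gives a range of reads over its ChIP-seq samples but no value per library, so the depth of each list is unknown here. A promoter or region without a peak is called bare, which means not called at that depth and threshold. Replicates 1 and 2 had wider and higher-fold peaks than replicate 3. Median peak width was 2297 and 2353 bp in replicates 1 and 2 and 1487 bp in replicate 3. The median fold enrichment was 13.4 and 14.0 against 4.19. Peaks of at least 5 kb made up 8.46%, 6.29% and 0.450% of the lists, and the length covered was 56.1, 55.7 and 37.7 Mb. The replicate 3 peaks lay mostly within the peaks of the others, since 89.6% of their length lay under replicate 1 peaks while 60.2% of the replicate 1 length lay under replicate 3 peaks.

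**Figure D1:**
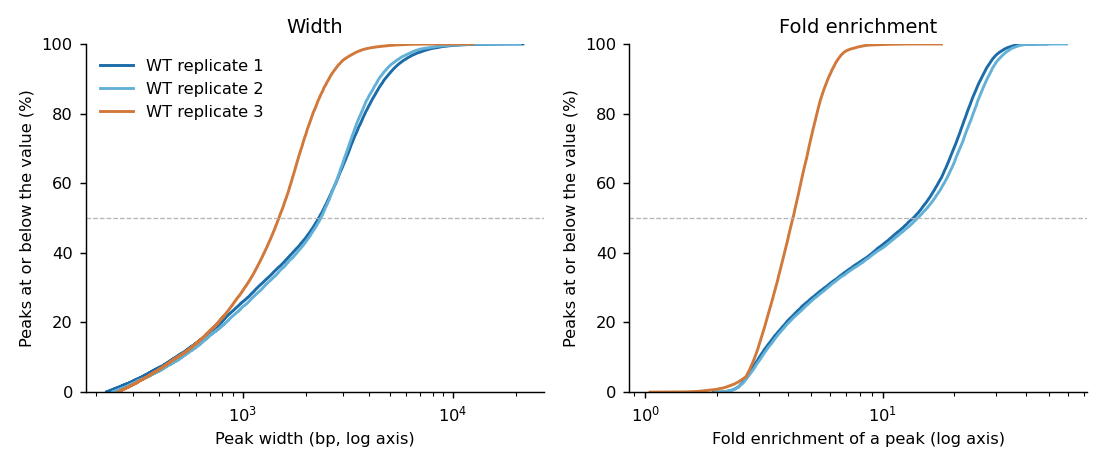
Cumulative share of peaks (%) by peak width in bp (left) and by fold enrichment (right), both on log axes, with 1 line per WT replicate and a dashed line at the median. Replicates 1 and 2 run together with medians of 2297 and 2353 bp, and replicate 3 is shifted to narrower peaks (1487 bp) and to lower fold (4.19 against 13.4 and 14.0).

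Fold enrichment ordered the regions differently in replicate 3. Over 18946 regions with a single peak in each library, Spearman's rho of fold was 0.931 between replicates 1 and 2, but -0.116 between 1 and 3 and -0.113 between 2 and 3. Peak width kept its order, with rho of 0.940, 0.894 and 0.886 for the same pairs, and so did −log10 q, with 0.965, 0.886 and 0.882. These are descriptions across regions of shared libraries, with no p. In replicates 1 and 2 the median fold rose from 2.97 and 2.96 in peaks under 500 bp to 21.4 and 22.8 in peaks over 3 kb, whereas in replicate 3 it was 3.17 and 2.69 in the same classes. Calls and widths, rather than fold, were therefore used for most of what follows.

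Merging the lists gave 27363 regions, of which 19414 (70.9%) were called in all 3 libraries and are called core regions here. A further 2903 were called in 2 libraries and 5046 in 1, of which 2750 in replicate 3 alone. Regions seen in 1 library were narrow, with a median of 479 bp against 2860 bp for core regions, and 51.8% of them lay in gene bodies and 38.3% between genes. The 32.9 Mb under peaks of all 3 libraries amounted to 1.13% of the genome.

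Protein-coding promoters, taken as 1 kb on either side of the gene's 5′ end, held 11698 core regions or 60.3%, although such windows make up 1.28% of the genome. Promoters of long non-coding RNAs (lncRNAs) held 1342 core regions (6.91%, with 1.08% of the genome). Gene bodies away from both kinds of promoter held 3638 (18.7%, with 58.0% of the genome). The remaining 2736 (14.1%, with 39.7% of the genome) were intergenic. Width fell in the same order, with medians of 3479, 2248, 1472 and 1276 bp. Replicate 3 was narrower mainly at promoters. There the median length under peaks was 3261, 3206 and 1958 bp in replicates 1, 2 and 3, while in intergenic regions it was 1005, 1124 and 1036 bp.

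**Figure D2:**
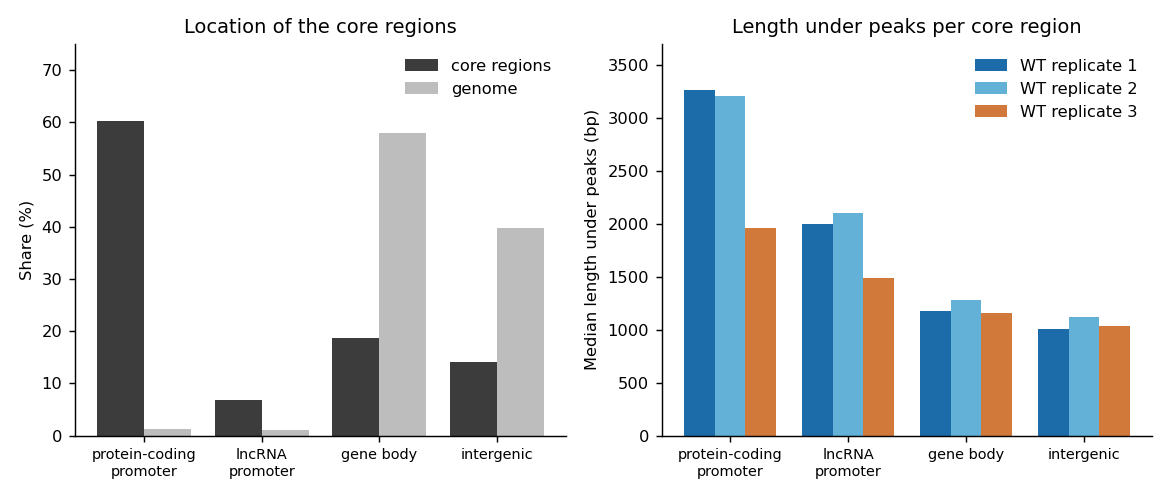
Left, share (%) of the 19414 core regions (dark bars) and of the genome (light bars) in each location. Right, median length under peaks per core region (bp) by location and WT replicate. Protein-coding promoters hold 60.3% of core regions and 1.28% of the genome, and the gap between replicate 3 and the others is widest there.

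Of the gene body regions, 1360 of 3638 (37.4%) lay within 1 kb of the 5′ end of some other annotated transcript, so that part of them are alternative promoters. Intergenic regions lay a median of 23201 bp from any annotated 5′ end, and 28.3% lay over 50 kb away. A pseudogene overlapped 162 of them (5.92%). The 6 intergenic core regions whose lowest percentile of fold over the 3 lists was highest were 908 to 1405 bp wide, and 3 of them overlapped a processed pseudogene. The first, chr7:65508939-65510343, was at the 98.7th percentile of fold or above in each list, and the second, chr2:94272622-94273921, lay 64196 bp from the nearest annotated gene. The others were chr18:15197648-15198555, chr16:34049946-34051326, chr10:38600077-38601391 and chr2:91441860-91443233 (GRCh38).

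At gene level, 13206 of 19970 protein-coding promoters (66.1%) were marked in all 3 libraries, 619 in 1 or 2 of them, and 6145 (30.8%) were bare in all 3. The libraries differed little in this measure, from 67.6% to 67.8% marked. A peak lay directly over the 5′ end in 96.9% to 98.6% of the promoters marked in 3 of 3. It reached further into the gene than upstream of it, with medians of 2011 bp downstream and 1181 bp upstream in replicate 1, 1903 and 1236 bp in replicate 2, and 1208 and 707 bp in replicate 3. Promoters of lncRNAs without a protein-coding 5′ end within 2 kb were marked in 1633 of 15299 cases (10.7%), against 82.9% of the 3457 with one.

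The mark differed widely between gene families. Over all protein-coding promoters 66.1% were marked in 3 of 3 and 30.8% were bare. Cytosolic ribosomal protein genes were marked in 83 of 84 cases, complex I subunits of the respiratory chain in 37 of 37, and the 15 constitutive genes listed as a check in 15 of 15. Olfactory receptors, which are silent outside sensory neurons, were marked in 6 of 415 and bare in 405. Keratin-associated proteins of the hair shaft were marked in 1 of 94, beta-defensins in 0 of 40 and bitter taste receptors in 0 of 24. Genes named ZNF, a large family of zinc finger factors, were marked in 433 of 515.

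Markers of cell types were counted in the same way. Of 15 mesenchymal markers 12 were marked in 3 of 3, among them VIM, FN1, CDH2, CD44, PDGFRA and SNAI2, and NT5E alone was bare. Of 13 blood markers only CD8A was marked, with 1158, 1270 and 1721 bp under peaks within 3 kb of its 5′ end, and PTPRC, the pan-leukocyte CD45, was bare. ITGAM was bare at its MANE Select 5′ end and called in all 3 libraries at another start. Of 6 liver markers only SERPINA1 was marked. Of the blood and liver markers 11 of 13 and 5 of 6 had few CpG dinucleotides (a ratio under 0.4, as defined for all promoters in the next paragraph), of which 0 and 1 were marked, and over all promoters this class was marked in 10.1% of cases. Only 3 of the 15 mesenchymal markers were in this class, of which 2 were marked. Of 6 endothelial markers 1 was marked in 3 of 3, of 10 epithelial markers 4, of 9 neural markers 5 and of 8 germline markers 2. The epithelial markers that were marked were EPCAM, KRT8, KRT18 and ESRP1. CDH1, the epithelial cadherin, was bare at the 5′ end used here and called in 2 libraries at another start. The germline ones were MAGEA1 and MAGEA4, cancer-testis antigens of the X chromosome.

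CpG content separated marked from bare promoters. The ratio of observed to expected CpG, counted over 1001 bp around the 5′ end, had a median of 0.790 in promoters marked in 3 of 3 and 0.272 in bare ones. Promoters with a ratio of 0.6 or more (CpG-rich) were marked in 89.0% of 13248 cases, and those under 0.4 (CpG-poor) in 10.1% of 4936. Covered length, the part of the 6001 bp around the 5′ end that lay under peaks, varied less. Among marked promoters its median in replicate 1 was 2659 bp below a ratio of 0.2 and 3620 bp from 0.8.

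The interferon promoters departed from this rule. Of 125 genes of the pathway, 91 (72.8%) were marked in all 3 libraries although their median CpG ratio was 0.375, against 0.725 over all promoters. Of the 66 that were CpG-poor, 39 (59.1%) were marked, against 9.45% of the 4870 CpG-poor promoters outside the interferon lists. Without the 10 genes for interferons themselves, all of which were bare, the share was 69.6% of 56. These 39 genes made up 7.82% of the 499 CpG-poor promoters marked in 3 of 3 and 31.2% of the interferon lists. The result depended on fold in replicate 3. With peaks of fold 4 or more in all 3 libraries, 10 of the 66 CpG-poor interferon promoters (15.2%) were marked, against 4.15% of those outside the lists, and 30.4% of all interferon promoters against 38.1% of all promoters, so that the interferon lists then lay below the background. By library, counting only such peaks, interferon promoters were marked in 74.4%, 72.8% and 33.6% of cases in replicates 1, 2 and 3, and all promoters in 66.5%, 66.5% and 39.3%. The developmental promoters departed in the other direction, with 60 of 99 CpG-rich ones marked (60.6%) and 31 bare (31.3%), where 9.16% of all CpG-rich promoters were bare.

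**Figure D3:**
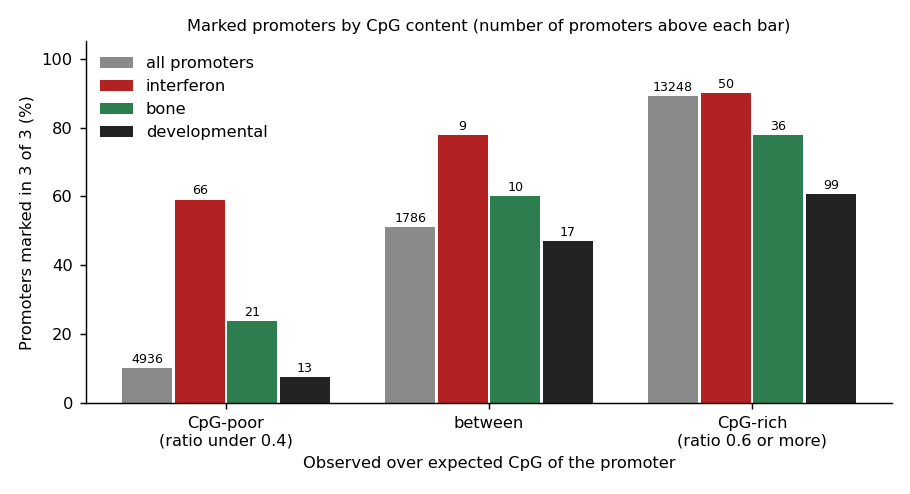
Share (%) of promoters marked in 3 of 3 WT libraries by CpG class, for all protein-coding promoters (grey) and the interferon (red), bone (green) and developmental (black) lists, with the number of promoters above each bar. CpG-poor interferon promoters were marked in 59.1% of cases against 10.1% of all CpG-poor promoters, and CpG-rich developmental promoters in 60.6% against 89.0%.

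The promoters of 4 interferon genes show the range of sequence over which the mark was and was not called. The RefSeq windows (GRCh38.p14, from 250 bases before to 50 after the start, on the gene's strand) are printed with any match to the GAS letters TTCNNNGAA or the ISRE letters GAAANNGAAA, on either strand, in capitals. IRF1 (chr5:132490724-132491023, minus strand) has 36 CpG and a GAS match, GBP1 (chr1:89065159-89065458, minus strand) 3 CpG and an ISRE match, MX1 (chr21:41420308-41420607, plus strand) 20 CpG and an ISRE match, and CXCL9 (chr4:76007460-76007759, minus strand) 0 CpG and an ISRE match.
IRF1: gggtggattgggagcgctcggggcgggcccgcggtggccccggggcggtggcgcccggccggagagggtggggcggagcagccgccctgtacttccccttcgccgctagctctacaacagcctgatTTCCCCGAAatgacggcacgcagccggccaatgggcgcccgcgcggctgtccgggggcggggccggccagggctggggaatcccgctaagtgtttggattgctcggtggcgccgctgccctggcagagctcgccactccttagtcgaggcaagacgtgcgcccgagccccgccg
GBP1: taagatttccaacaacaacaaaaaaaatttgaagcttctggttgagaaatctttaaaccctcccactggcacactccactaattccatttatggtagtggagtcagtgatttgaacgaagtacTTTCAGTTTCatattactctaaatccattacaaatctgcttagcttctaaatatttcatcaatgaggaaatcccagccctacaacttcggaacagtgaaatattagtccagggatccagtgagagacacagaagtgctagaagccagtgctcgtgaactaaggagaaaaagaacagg
MX1: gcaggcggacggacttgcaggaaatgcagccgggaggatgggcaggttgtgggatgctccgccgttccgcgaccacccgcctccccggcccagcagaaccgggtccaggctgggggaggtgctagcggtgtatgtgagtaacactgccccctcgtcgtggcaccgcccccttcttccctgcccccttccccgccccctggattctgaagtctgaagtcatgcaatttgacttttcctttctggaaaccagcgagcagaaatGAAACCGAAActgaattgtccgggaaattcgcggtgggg
CXCL9: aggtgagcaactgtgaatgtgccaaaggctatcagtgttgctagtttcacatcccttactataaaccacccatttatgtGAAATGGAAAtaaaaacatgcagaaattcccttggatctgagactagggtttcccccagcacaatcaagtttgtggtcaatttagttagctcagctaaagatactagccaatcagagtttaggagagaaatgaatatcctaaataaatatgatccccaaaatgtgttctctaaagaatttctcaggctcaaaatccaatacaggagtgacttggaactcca
The GBP1 and MX1 windows lay wholly under peaks in all 3 libraries (300 of 300 bases). The IRF1 window did so in replicates 1 and 2 and over 95 bases in replicate 3. The CXCL9 window was bare in all 3. A match is a run of letters and says nothing of binding. Of the 15315 protein-coding promoters with such a window, 6.97% held the GAS letters, 3.18% the ISRE letters and 9.77% either. Of 95 interferon genes with a window, 50 (52.6%) held either, 33 of the 69 marked in 3 of 3 and 12 of the 18 bare ones. Marked and bare refer here to the call at the gene's 5′ end and not at the window. MX1 thus counts among the bare ones, although its window lay under peaks. The letters TATAAA were in 9.64% of all windows, in those of 5 of the 69 marked interferon genes and of 11 of the 18 bare ones. The same direction held over all protein-coding genes with a window. There TATAAA was in 5.19% of those marked in 3 of 3, 19.9% of bare ones and 24.4% of CpG-poor bare ones. The GAS or ISRE letters were in 8.35% of those marked in 3 of 3 and 12.8% of bare ones.

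All 14 genes of IFNγ reception and JAK-STAT signalling were marked in 3 of 3, against 66.1% of all promoters. All 14 were CpG-rich, and of all CpG-rich promoters 89.0% were marked. The receptor chains IFNGR1 and IFNGR2 had 2706, 3702 and 1885 bp and 3613, 3314 and 1875 bp under peaks in replicates 1, 2 and 3. SOCS1 and SOCS3, feedback inhibitors of the pathway, had 4567, 4398 and 3394 bp and 4203, 4348 and 3281 bp. In each of these genes replicate 3 was lowest, while the call was the same in all 3 libraries.

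Of the 9 interferon regulatory factors, 6 (66.7%) were marked, against 66.1% of all promoters. Of the 8 that were CpG-rich 5 (62.5%) were marked, against 89.0% of all CpG-rich promoters. IRF1 had 4223, 4491 and 3046 bp under peaks in replicates 1, 2 and 3. IRF8, best known from blood cells, was also marked, with 4275, 3968 and 2060 bp. IRF9, part of the type I interferon response complex, was marked with a CpG ratio of 0.129. IRF4, a factor of lymphocytes, and IRF7, which drives type I interferon genes, were among the 3 bare in all libraries at every annotated start, and these promoters were CpG-rich. IRF4 (chr6:391502-391801, plus strand, 32 CpG) is printed beside RUNX2 (chr6:45328080-45328379, plus strand, 2 CpG), the main transcription factor of osteoblasts, whose window was covered in full in all 3 libraries. Here the capitals mark CpG dinucleotides, and the pair shows a CpG-rich bare promoter and a CpG-poor marked one.
IRF4: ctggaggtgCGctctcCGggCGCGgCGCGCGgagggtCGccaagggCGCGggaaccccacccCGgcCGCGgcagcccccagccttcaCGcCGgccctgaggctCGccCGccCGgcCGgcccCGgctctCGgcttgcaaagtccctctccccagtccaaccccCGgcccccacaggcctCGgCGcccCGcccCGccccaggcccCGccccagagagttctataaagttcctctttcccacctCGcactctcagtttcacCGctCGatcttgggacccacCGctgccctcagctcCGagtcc
RUNX2: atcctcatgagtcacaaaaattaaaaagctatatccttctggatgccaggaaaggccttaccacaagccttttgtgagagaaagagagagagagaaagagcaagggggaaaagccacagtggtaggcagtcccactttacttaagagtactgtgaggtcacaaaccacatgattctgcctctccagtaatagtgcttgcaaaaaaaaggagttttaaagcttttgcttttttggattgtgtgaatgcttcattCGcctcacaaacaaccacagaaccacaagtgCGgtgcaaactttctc
RUNX2 had 3321, 1652 and 1867 bp under peaks in replicates 1, 2 and 3.

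The guanylate-binding proteins, large GTPases that act on intracellular pathogens, are encoded side by side on chromosome 1. GBP1 to GBP5 were marked in 3 of 3 (71.4% of the list, against 66.1% of all promoters) and GBP6 and GBP7 were bare. Of the 6 CpG-poor ones 4 were marked, against 9.45% of CpG-poor promoters outside the interferon lists. GBP1 had 3746, 3474 and 2368 bp under peaks and GBP5 had 4089, 4802 and 4243 bp. The nearest peak to GBP7 was 20273 bp or more from its 5′ end in every library. GBP7 lies between GBP2 and GBP4, both marked, and the CpG ratios of GBP2, GBP7 and GBP4 were 0.180, 0.089 and 0.482.

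Against 66.1% of all promoters, 17 of 18 genes of class I presentation (94.4%) were marked. Among them were the class I heavy chains HLA-B, HLA-C, HLA-E and HLA-F, the light chain B2M, the peptide transporter TAP1 and TAP2, the immunoproteasome subunits PSMB8, PSMB9 and PSMB10, and NLRC5, the class I transactivator. HLA-G, normally a placental gene, was bare. Of the 14 CpG-rich genes of this list 13 (92.9%) were marked, against 89.0% of all CpG-rich promoters. The 6001 bp window of TAP1 was filled in replicates 1 and 2 and covered over 3697 bp in replicate 3, and NLRC5 had 6001, 6001 and 2558 bp. Reads that mapped to several places were removed by the authors, which bears on HLA genes.

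Of 18 genes of class II presentation, 13 (72.2%) were marked in 3 of 3, against 66.1% of all promoters, 4 in 1 or 2 libraries, and HLA-DRB5 in none. Of the 13 CpG-poor ones 9 (69.2%) were marked in 3 of 3, against 9.45% of CpG-poor promoters outside the interferon lists. By qPCR the paper reported more HLA-DRB5 transcript in IFNγ-treated WT than KO clones. With multimapping reads removed, HLA-DRB5 was only not called, which need not mean an unmarked promoter. CIITA had 3471, 3318 and 2837 bp under peaks and a CpG ratio of 0.252. The CIITA peak was 4630, 3574 and 2837 bp wide. CD74, the invariant chain, had 3342, 3561 and 2761 bp, and HLA-DRA had 3442, 2930 and 2057 bp. The other class II chains ranged widely. HLA-DPB1 had 4187, 2424 and 1630 bp and HLA-DQB1 2440, 2243 and 2048 bp. HLA-DRB1 had 1366, 456 and 2458 bp, HLA-DQA1 969, 0 and 981 bp, HLA-DPA1 799, 0 and 521 bp and HLA-DOB 520, 562 and 0 bp. With every annotated start counted, HLA-DPA1 was called in all 3 libraries. HLA-DMA and HLA-DMB, which load peptide, lay between 1305 and 1825 bp in every library. Replicate 3 had the shortest covered length in 96.2% of all promoters marked in 3 of 3, but not at HLA-DRB1, HLA-DMA, HLA-DMB or HLA-DOA. The median width of the 13 core regions that hold class II promoters was 2775 bp, against 3479 bp over all promoter regions and 4938 bp over the 14 that hold class I promoters.

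**Figure D4:**
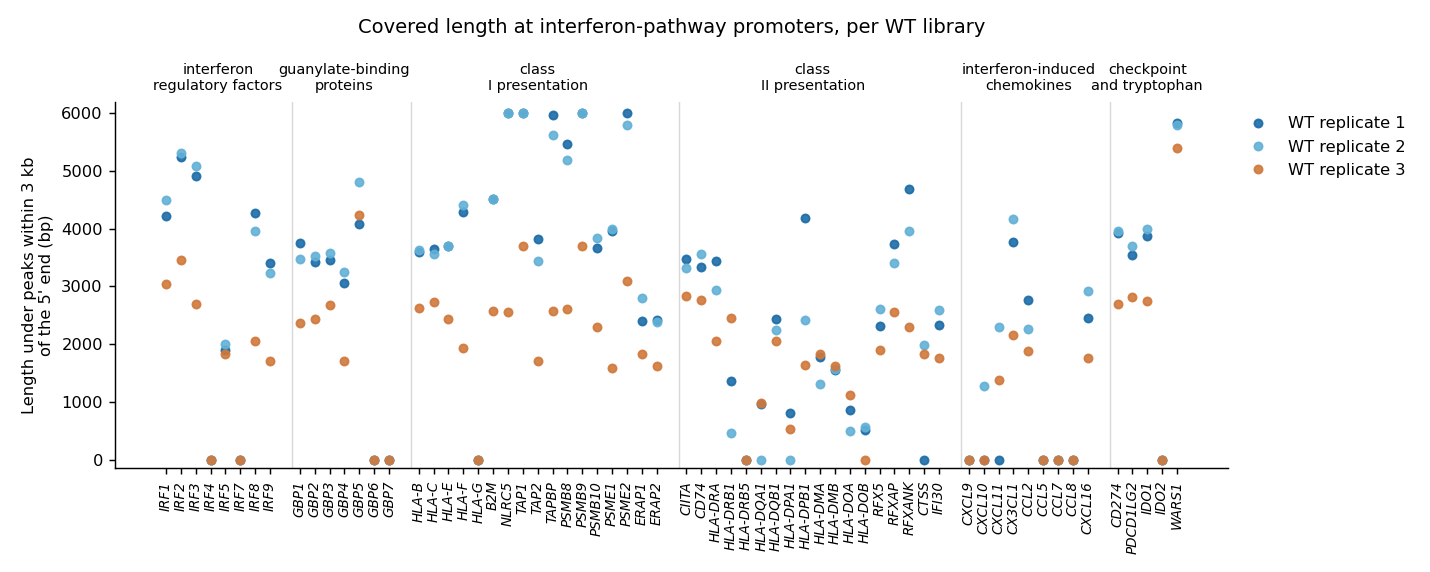
Length under peaks (bp) within 3 kb of the 5′ end, for genes of 6 interferon lists, with 1 point per WT replicate (0 means no peak). TAP1 and NLRC5 reach 6001 bp in replicates 1 and 2, the HLA-DM and HLA-DO genes stay at or below 1825 bp, and the bare genes include IRF4, IRF7, GBP6, GBP7, HLA-G and CXCL9.

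The interferon-induced chemokines were the list least often marked among those IFNγ induces, with 3 of 9 in 3 of 3 (33.3%), against 66.1% of all promoters. In this list 8 promoters were CpG-poor, of which 2 (25.0%) were marked, against 9.45% of CpG-poor promoters outside the interferon lists. CX3CL1 had 3778, 4167 and 2160 bp, CCL2, which attracts monocytes, 2773, 2255 and 1886 bp, and CXCL16 2460, 2920 and 1753 bp. The ligands of the T cell receptor CXCR3 were called in few libraries. CXCL9 was bare in all 3, CXCL10 had 0, 1282 and 0 bp, and CXCL11 had 0, 2296 and 1382 bp. CCL5, CCL7 and CCL8 were bare in all 3.

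Of 35 antiviral effectors, 29 (82.9%) were marked in 3 of 3, against 66.1% of all promoters, and 5 in 2 of 3. Of the 22 CpG-poor ones 18 (81.8%) were marked in 3 of 3, against 9.45% of CpG-poor promoters outside the interferon lists. ISG15, a ubiquitin-like modifier, had 3498, 3089 and 2783 bp, and IFIT1, which binds foreign RNA, 2683, 2478 and 1962 bp. PML, the organiser of nuclear bodies, had 6001, 6001 and 3382 bp. MX1, a GTPase against influenza viruses, was bare at its MANE Select 5′ end. Its RefSeq window printed above, which starts 5931 bp upstream, lay under peaks in all 3 libraries, so the call turned on the start chosen. IFITM2 had 2909, 3020 and 0 bp, and IFITM3 2146, 1901 and 386 bp, both restriction factors of viral entry. Of the genes of checkpoints and tryptophan breakdown, CD274 (PD-L1), PDCD1LG2, IDO1 and WARS1 were marked and IDO2 was bare. WARS1, the tryptophanyl-tRNA synthetase, had 5833, 5799 and 5393 bp of the 6001 bp window, which nearly fills it, while the peak itself was 15105, 12783 and 5393 bp wide. The 10 genes for interferons, IFNG and IFNB1 among them, were bare.

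Interferon loci stood among the broadest core regions, whose width here is that of the peaks merged over the libraries. The widest single peak of replicate 3 was 12478 bp. The 10 broadest core regions ran from 15105 to 22190 bp. First was the promoter of PLEC, the cytoskeletal linker plectin. It was followed by the regions of MAZ, PRRT2, PAGR1 and MVP (19124 bp) and of BLOC1S1, RDH5 and CD63 (17199 bp). The region of TAP1, PSMB8 and PSMB9 (chr6:32841581-32858507, 16927 bp) ranked number 4. The next ones held METRN and HAGHL, the lncRNA MIR222HG on chromosome X, and PMEPA1, a target of TGF-beta. The region of PSME1, PSME2, EMC9 and RNF31 (chr14:24135205-24150434, 15230 bp), which encodes the proteasome activator PA28, ranked number 8, and that of WARS1 and WDR25 (chr14:100363075-100378179, 15105 bp) number 10. RAB34 and RPL23A stood between them. GBP5 and TAPBP followed at 13431 and 13407 bp. Peaks covered 16927, 15785 and 6309 bp of the TAP1 region in replicates 1, 2 and 3. They covered 15209, 13258 and 5874 bp of the PSME1 region and 15105, 13597 and 5393 bp of the WARS1 region. Of the 89 core regions that hold an interferon promoter, 13 (14.6%) were among the broadest 5% of the 11698 promoter regions, those of at least 6825 bp. The same count was 6 of 40 for bone, 6 of 72 for developmental, 7 of 26 for cell type marker and 4 of 15 for constitutive genes. As shares these were 15.0%, 8.33%, 26.9% and 26.7%, so the interferon share was not the highest. A region may merge the peaks of several genes, so regions of several genes weigh in this order, although 87.5% of promoter regions held 1 protein-coding 5′ end.

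**Figure D5:**
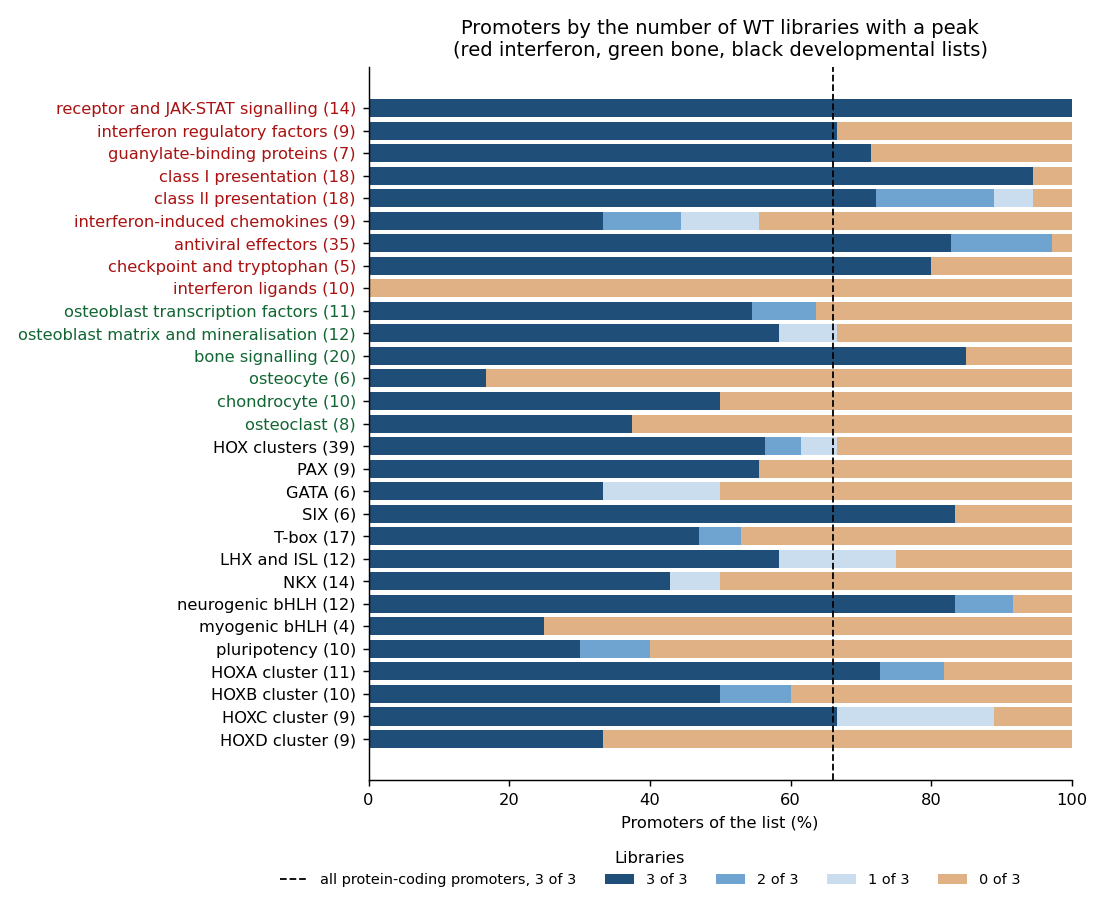
Promoters (%) of each interferon (red), bone (green) and developmental (black) list by the number of WT libraries with a peak, with the number of genes in brackets and a dashed line at the 66.1% of all protein-coding promoters marked in 3 of 3. The 4 HOX clusters are also drawn singly below the 39 HOX genes. JAK-STAT genes, all CpG-rich, were marked in 14 of 14 and interferon genes, all CpG-poor, in 0 of 10.

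Of 67 bone genes, 39 (58.2%) were marked in 3 of 3, against 66.1% of all promoters, and 26 were bare. Of the CpG-poor ones 5 of 21 (23.8%) were marked, against 10.1% of all CpG-poor promoters. Of the CpG-rich ones 28 of 36 (77.8%) were marked, against 89.0%. Signalling genes were marked in 17 of 20 cases, with BMP2, BMP4, NOG, WNT5A and the decoy receptor TNFRSF11B among them. TNFSF11 (RANKL), the cytokine that osteoblast lineage cells give to osteoclasts, was bare and lay 300370 bp or more from the nearest peak. Of 11 osteoblast transcription factors 6 were marked, RUNX2, ATF4, MSX1, MSX2 and CBFB among them. DLX5, DLX6 and TWIST1 were bare at every annotated start. SP7, the factor that acts after RUNX2, was bare at its MANE Select 5′ end and called in all 3 libraries at another of its transcript starts.

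The matrix genes were divided. COL1A1, the main collagen of bone, had 3589, 3641 and 2596 bp under peaks and SPARC had 3562, 3128 and 2339 bp. COL1A2, which encodes the partner chain of the same collagen, was bare, with the nearest peak 113823 bp or more away in every library. BGLAP (osteocalcin) and IBSP (bone sialoprotein), markers of mature osteoblasts, were bare too, and SPP1 (osteopontin), with 995, 3356 and 699 bp, was called in 1 library at its 5′ end. ALPL, the bone alkaline phosphatase, was bare at its MANE Select 5′ end and called in 2 libraries at another start. Of 6 osteocyte genes PDPN alone was marked, and SOST, DMP1, MEPE, PHEX and FGF23 were bare. These 5 bare promoters were CpG-poor, a class marked in 10.1% of cases over all promoters, and PDPN was CpG-rich. Of 10 chondrocyte genes 5 were marked, SOX9, SOX5, SOX6, ACAN and MATN3, and COL2A1 had 1462, 1777 and 1104 bp only beyond 1 kb from its 5′ end. Of 8 osteoclast genes 3 were marked, the proton pump and chloride channel genes TCIRG1 and CLCN7 and the calcitonin receptor CALCR, while ACP5 and CTSK were bare. The 4 CpG-poor promoters of the osteoclast list were all bare.

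Of 129 developmental genes, 69 (53.5%) were marked in 3 of 3 and 49 were bare. Over all promoters the same shares were 66.1% and 30.8%. The 39 HOX genes, which set position along the body axis, were marked in 22 cases. HOXA was marked in 8 of 11 genes, HOXB in 5 of 10, HOXC in 6 of 9 and HOXD in 3 of 9. In the HOXA cluster peaks covered 42.7%, 39.5% and 22.1% of the span in replicates 1, 2 and 3, and in HOXD 16.6%, 19.9% and 14.1%. HOXD1, HOXD8 and HOXD9 were marked, and the neighbours HOXD10, HOXD11, HOXD12 and HOXD13 at the end of the cluster were bare within 1 kb. HOXD11 was called in all 3 libraries at another of its annotated starts. HOXD13 had 0 bp within 3 kb in every library, although its CpG ratio was 0.841.

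Neurogenic bHLH factors were marked in 10 of 12 cases. Their median covered length was 1259, 2688 and 1254 bp in replicates 1, 2 and 3, against 3344, 3275 and 1993 bp over all marked promoters, so that replicate 2 lay nearer to the background than the others. OLIG3 had 442, 422 and 1097 bp. PAX genes were marked in 5 of 9 cases, LHX and ISL in 7 of 12, T-box in 8 of 17, NKX in 6 of 14 and GATA in 2 of 6. Over the 10 developmental lists the share ran from 25.0% in the myogenic factors to 83.3%, which the neurogenic bHLH factors and 1 other list reached. GATA6 was called in replicate 3 alone, with 2508 bp, and LHX5 in replicate 2 alone, with 4372 bp. LHX5 lay in a core region, of which peaks covered 5387, 9984 and 3555 bp in replicates 1, 2 and 3. Its call thus turned on the 1 kb window. Among the myogenic factors MYOD1 was marked and MYF5, MYF6 and MYOG were bare. Of 10 pluripotency genes SOX2, KLF4 and LIN28B were marked in 3 of 3, and POU5F1, which encodes OCT4, was bare. At the start of any annotated transcript, 80 of the developmental genes were marked in 3 of 3 and 35 were bare, with GATA2, GATA3, TBX2 and ISL1 among those gained.

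The libraries, each of a separate clone, differed in their calls at some promoters of the lists. Of the 125 interferon, 67 bone and 129 developmental promoters, 11 (8.80%), 2 (2.99%) and 11 (8.53%) were called in 1 or 2 libraries, against 3.10% of all promoters. Among them IFITM2, IFITM3, XAF1, HLA-DOB, DLX3, HOXA3 and HOXB2 were missed in replicate 3 alone, and MX2, IFI35, HLA-DQA1, TBXT and NANOG in replicate 2 alone. A peak in a bulk culture does not tell in what share of the cells or alleles the histone was marked.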

How the data were processed

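The 3 lists of H3K4me3 ChIP-seq peaks from IFNγ-treated WT U2OS clones were analysed here, taken as 1 group with the replicate numbers of their labels. Per the study's methods and processing notes, reads were trimmed with Trimmomatic, aligned to GRCh38 with Bowtie2 2.3.5.1, freed of unmapped, multimapping and duplicate reads, and given to MACS2 2.1.1.2 in broad, paired-end mode. Peaks were called by the authors per library and not on pooled libraries. Whether an input was used for each list is not given in the sources used here.

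The deposited lists hold a score (the caller's display value, not used), a fold enrichment ratio over local background, and −log10 p and −log10 q, all averaged over a broad peak. The lists carry no counts, so no interval from counting was computed. The authors' values served to describe, rank and filter peaks within a list.

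Positions are 1-based on GRCh38. Per list, 18 to 44 peaks on sequences outside the main chromosomes and up to 6 peaks on chromosome Y were left out. Overlapping or touching peaks were merged, and a region or promoter was called in a library at 1 bp of overlap. A promoter was 1 kb on either side of the MANE Select or canonical 5′ end of a GENCODE 44 protein-coding gene. A lncRNA promoter was taken at the 5′ end of the gene. Regions were assigned to the first that applied of protein-coding promoter, lncRNA promoter, gene body and intergenic. Sequences came from RefSeq (GRCh38.p14), which had a window for 274 of the 403 list genes. The lists were chosen with earlier results of these data known, as was the choice of samples. The genes named were any of the lists, with examples taken first from those marked in 3 of 3 with the broadest peaks and from the bare ones, together with the 10 broadest core regions and the 6 intergenic ones with the highest lowest percentile of fold. No test was made. The counting was tested on simulated lists, where it recovered 1000 of 1000 promoters and 750 of 750 core regions. Python 3.11.15, numpy 2.4.6, scipy 1.17.1 and matplotlib 3.10.9 were used. Many list genes are counted without being named, and the values of some are not reported here.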

Additional observations from a re-analysis of the deposited data

How the results depend on the processing

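Of 212 values recomputed under the alternatives, 169 stayed within 1.5 times the reported count, or within the spread between libraries for a share, a median or a difference of shares. One direction reversed. The share of interferon promoters marked in 3 of 3 exceeded that of all promoters by 6.67 percentage points, but with a minimum fold of 4 the difference was -7.71 points. That minimum kept 79.4%, 80.2% and 55.5% of the peaks of replicates 1, 2 and 3, and 39.3% of protein-coding promoters in replicate 3. It left 11178 core regions, with 7058 at protein-coding promoters (63.1%), 871 at lncRNA promoters, 1765 in gene bodies and 1484 between genes, and 7611 promoters marked in 3 of 3, among them 38 interferon (10 of the CpG-poor ones), 13 bone and 26 developmental genes. It moved the difference from all promoters from -7.92 to -18.7 points for bone and from -12.6 to -18.0 for developmental genes, and that between CpG-poor promoters inside and outside the interferon lists from 49.6 to 11.004.

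With a window of 3 kb these 4 differences, in the order interferon, bone, developmental and CpG-poor, were 5.64, -3.78, -9.05 and 45.1 points. Counting the 5′ end of any transcript gave 5.96 for interferon, -7.23 for developmental and 41.1 for CpG-poor promoters. It left 2278 core regions in gene bodies in place of 3638 and raised the share at protein-coding promoters to 67.2%. Where 2 called libraries sufficed, that share was 53.4%, and the interferon, developmental and CpG-poor differences were 12.3, -10.4 and 59.0. With −log10 q of at least 3 the share was 64.8% and the CpG-poor difference 49.2. The latter was 49.95 with equal numbers of peaks, the interferon one 6.17 on autosomes only, and the developmental one -16.2 where 500 bp of a window had to be covered. Leaving out one library gave 57.4% to 58.0% at protein-coding promoters, 20338 to 20488 core regions, 13255 to 13375 marked promoters, and 93 to 95, 39 to 40 and 69 to 72 marked interferon, bone and developmental genes. The interferon difference was then 8.03 to 9.02, the developmental one -12.9 to -11.2 and the CpG-poor one 52.3 to 53.6. The cause of these shifts was not tested. No paired analysis was possible because the result comes from no test and a single group was described. Depth per library is unknown, so a bare promoter was only not called.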

Other observations

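The CpG-poor promoters with the longest covered length were chosen after their values were seen. WARS1 led them with a mean of 5675 bp over the 3 libraries. CLEC11A, a growth factor for osteogenic and blood progenitors, followed with 6001, 6001 and 4134 bp in replicates 1, 2 and 3. NNMT, a methyltransferase of nicotinamide, had 5112, 4794 and 3924 bp. AXL, a receptor kinase of mesenchymal cells, had 4246, 4129 and 4269 bp and was among the few promoters where replicate 3 was not the lowest. S100A2, with a CpG ratio of 0.107, had 6001, 6001 and 2842 bp. SERPINA1, listed here as a liver marker, had 5847, 5691 and 1603 bp, so its call rested on a much shorter peak in replicate 3. Of the 30 CpG-poor promoters with the longest covered length, WARS1, PSME2 and GBP5 belonged to the interferon lists.

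The share of promoters marked in 3 of 3 varied between chromosomes. It was lowest on chromosome 21 (54.1%), X (55.1%) and 11 (57.9%) and highest on chromosome 14 (462 of 616 promoters). Core regions were densest on chromosomes 19 and 17, with 19.8 and 12.3 per Mb, and sparsest on chromosome 4, with 4.09 per Mb.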
